A study of Mus musculus with 2 samples.

Results

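Neutrophils were defined here by their transcripts among CD45+ immune cells of visceral adipose tissue (VAT) and numbered 82 of 25198 cells. A cell was taken when it held at least 5 unique molecular identifiers (UMIs, each standing for 1 captured RNA molecule) of S100a8 and at least 5 of S100a9, fewer than 10 UMIs summed over C1qa, C1qb and C1qc, no UMI of Cd3e or Cd3d, and at most 1 of Cd79a. The 25198 cells were those with at least 500 gene UMIs, at least 200 genes and at most 25% mitochondrial UMIs. The normal water (NW) library gave 47 neutrophils of 12474 cells and the antibiotics (ABX) library gave 35 of 12724.

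Both groups were wild-type (WT) male C57BL/6 mice aged 15 weeks, kept specific pathogen-free, and were given normal water or antibiotics. The visceral fat (eWAT) was dissociated with the same enzyme kit, CD45+ cells were enriched on magnetic beads, and cells were labelled with barcoded antibodies (AbSeq) and captured on the BD Rhapsody micro-well system. The comparison asks how depletion of the gut microbiota relates to the immune cells of this fat depot. There was 1 library per condition, the number of mice behind each is not given in the sources used here, and no difference between NW and ABX can be set against a spread between replicates. Intervals below are exact 95% intervals and cover counting error only.

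Neutrophils are short-lived granulocytes that are made in the bone marrow, circulate in blood and enter tissues along gradients of chemokines and bacterial products. Their maturation can be followed by granule genes: primary granule enzymes are transcribed in early precursors, secondary granule proteins in later ones, and gelatinase and surface receptor genes in mature cells. In adipose tissue they are a minor population that is known to increase early in overfeeding, and the cytokine genes they transcribe include Il1b, Cxcl2 and Osm.

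The 3 marker genes that the choice of cells did not use were present in nearly every member. Csf3r encodes the receptor for granulocyte colony-stimulating factor, Cxcr2 the receptor for neutrophil-attracting chemokines, and Retnlg the secreted resistin-like gamma. All 3 had a UMI in 40 of the 47 NW neutrophils and 33 of the 35 ABX neutrophils, exactly 2 of them in 6 and 2 cells, and only 1 in 1 NW cell. No member lacked all of them. Csf3r had a median of 7 UMIs per NW neutrophil (range 1 to 16) and 5 per ABX neutrophil (range 0 to 13), and Cxcr2 had 10 (0 to 21) and 6 (1 to 24). In B cells, which should lack these genes, 2.65% of NW and 0.734% of ABX cells held a Csf3r UMI although B cells were deeper, with a median of 5330 and 4781.5 gene UMIs. The label of neutrophils therefore held on genes outside the gate.

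The neutrophils were small libraries of RNA. The median was 1678 gene UMIs in NW (range 842 to 3014) and 1355 in ABX (range 661 to 4056), against 5109 and 3851 in all other cells of the same libraries. They held a median of 857 and 720 genes, and their mitochondrial share was low, at 0.823% and 1.15% against 6.01% and 7.07% in the other cells. The depth ratio of ABX to NW was 0.808 in neutrophils and 0.754 in the other cells. The minimum of 500 UMIs removed no barcode that met the neutrophil rule, and the mitochondrial limit removed 1 in each library. A total of 196 cell barcodes occurred in both libraries, as the same label sequences can be drawn in separate captures, and none of them was a neutrophil.

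At the edge of the rule, the NW cells just inside had S100a8 and S100a9 at 12 and 7, 24 and 6, 5 and 7, and 7 and 21 UMIs, and the 1 such ABX cell had 7 and 9. Just outside, with the lower of the pair at 3 or 4 UMIs, were 4 NW and 5 ABX cells, each with UMIs of Csf3r, Retnlg and Cxcr2. The 3 NW cells with S100a8 and S100a9 at 12 and 7, 24 and 6, and 5 and 7 held no Retnlg, and the first of them no Cxcr2 and a single Csf3r UMI. They held 8.23% of the summed NW neutrophil UMIs but 71.7% of those of Ccl3, 53.7% of Cstb, 51.3% of Ptgs2 and 43.5% of Ccrl2. The same 3 cells held 38.1% of the UMIs of Nfkbia, 33.3% of Ier3, 32.7% of Cxcl2, 31.4% of Jun, 30.8% of Thbs1 and 23.5% of Fth1. Values of these genes are therefore also given without the 4 NW cells and the 1 ABX cell just inside the limit, a choice made after the data were seen. The exclusion of other lineages left out 4 NW and 10 ABX cells that had enough S100a8 and S100a9. Each of them held a UMI of Csf3r, Retnlg or Cxcr2, and the share of neutrophils was not recounted with them. Of these cells, 1 NW and 6 ABX cells held Cd3e or Cd3d, 2 and 4 passed the C1q limit, and 1 in each library passed the Cd79a limit.

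The share of neutrophils was 0.377% of NW cells (Clopper-Pearson interval 0.277 to 0.501) and 0.275% of ABX cells (0.192 to 0.382). The ratio of ABX to NW was 0.73, or -0.137 on the log10 scale, and its interval of -0.326 to 0.0531 includes 0, so a difference in abundance was not detectable at this number of cells. Taken over cells without Cd3 and Cd79a transcripts, the shares were 0.493% and 0.389%. When only cells with at least 1000 UMIs were counted, 46 NW and 29 ABX neutrophils remained and the log10 ratio was -0.205 (-0.406 to -0.00317). That was the only setting whose interval excluded 0, and ABX neutrophils had the lower median depth. With the gate scaled to at least 10 UMIs of each S100 gene per 10000, 50 NW and 43 ABX cells were members. Their log10 ratio was -0.0741 (-0.251 to 0.103).

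S100a8 and S100a9, the subunits of the antimicrobial protein calprotectin, chose the cells and are given as a description. Levels are given as CPM, the UMIs of a gene summed over the neutrophils of a library per 1000000 of their gene UMIs, which came to 83741 in NW and 53748 in ABX. S100a8 stood at 13697 CPM in NW and 14791 in ABX, and S100a9 at 17196 and 20149.6. Together they made up a median of 2.93% of a NW neutrophil's UMIs (range 0.544 to 7.57) and 3.15% of an ABX neutrophil's (0.787 to 9.61). The 82 cells held 69.6% of all S100a8 UMIs of the 25198 cells, 66.7% of S100a9, 64.9% of Retnlg and 61.3% of Cxcr2. For Stfa2l1, of the stefin A family of cysteine protease inhibitors, the share was 68.6%, for Trem1, a receptor that amplifies inflammatory signalling, 60.7%, for Wfdc21 55.1%, for the collagenase gene Mmp8 52.0% and for Lcn2, the iron-siderophore binding lipocalin, 47.7%. Csf3r was less restricted, with 16.4% of its UMIs in these cells, and Il1b had 9.33%. Stefin A genes have near-identical copies, so the split of reads among them is uncertain.

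Primary granule genes were hardly captured in these cells. Of 9 primary granule and precursor genes, 8 had no UMI in any of the 82 cells (Mpo, Elane, Prtn3, Ctsg, Ms4a3, Prss57, Fcnb and Gfi1), and the list summed to 1 UMI in NW and 2 in ABX. Of the 10 genes of the secondary granule list 8 had UMIs, 501 in NW and 416 in ABX in all. Lcn2 gave 260 and 160 of these, Lyz2 131 and 127, and Anxa1 80 and 76. Ngp had 2 and 15, and Ltf and Camp were at 0. The late genes were present: Mmp9, gelatinase B, at 2066 CPM in NW and 2828 in ABX, Mxd1, a transcriptional repressor of the Myc network, at 2985 and 2958, Hdc, histidine decarboxylase, at 1469 and 2102, and Il1r2, the decoy receptor for interleukin-1, at 1206 and 912. The proliferation genes Mki67, Top2a, Pclaf and Birc5 had no UMI. A count of 0 allows a level of up to 35.8 CPM in NW and 55.8 in ABX, taking 3 UMIs per library as the limit.

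**Figure D1:**
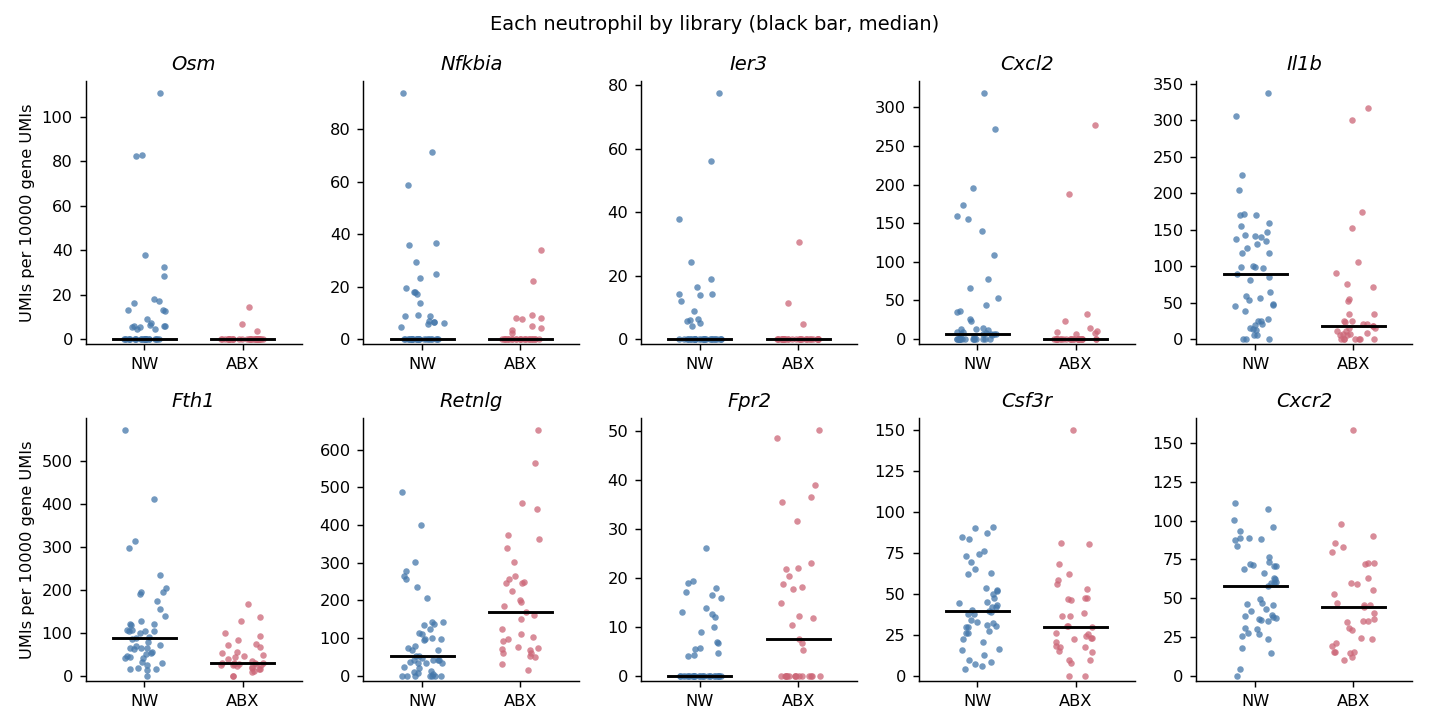
Each point is 1 neutrophil (47 NW, 35 ABX), plotted as UMIs of the gene per 10000 gene UMIs of that cell, with the median as a black bar. Osm, Nfkbia, Ier3 and Cxcl2 have medians at or near 0 with a tail of high cells that is longer in NW, the Il1b and Fth1 medians are lower in ABX, the Retnlg median is higher in ABX, and Csf3r and Cxcr2 overlap widely.

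Between ABX and NW, 485 genes had at least 50 UMIs over both sets of neutrophils and were compared by the ratio of CPM. Of them 45 (9.28%) differed by at least 2-fold, 13 (2.68%) higher and 32 (6.6%) lower in ABX. The median log2 ratio of the 485 genes was -0.003 and the quartiles were -0.36 and 0.28. Without the cells just inside the limit, 17 of 447 genes were at least 2-fold higher and 22 at least 2-fold lower. The lowest ratios included Osm, Il1rn, Nfkbia and Fth1, and the highest Retnlg, Fpr1 and Fpr2. No p-value is given, since each condition is 1 library.

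**Figure D2:**
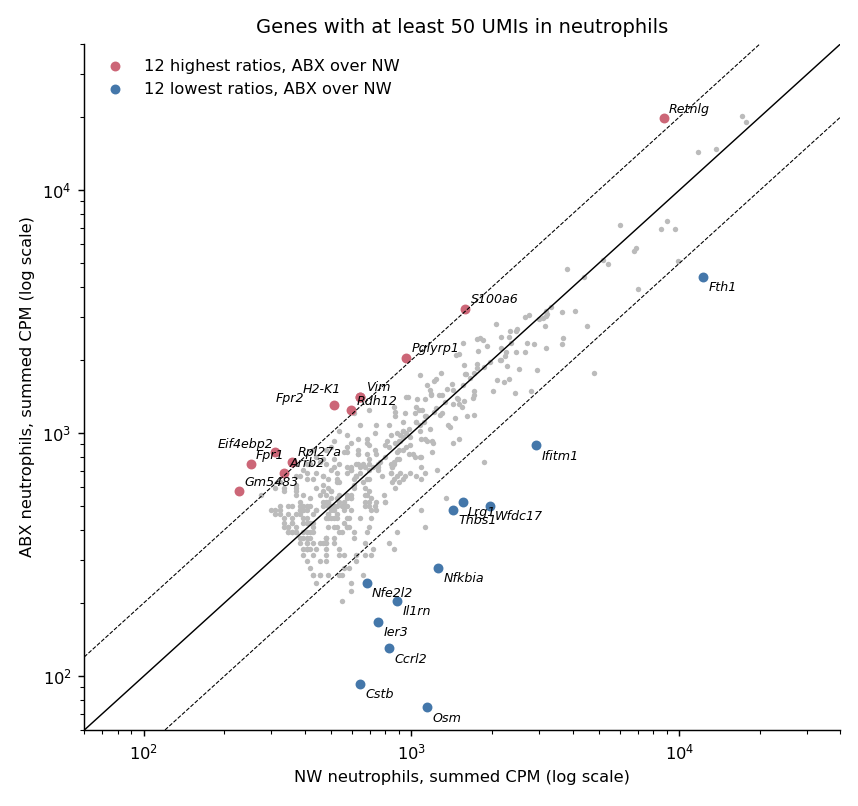
Summed CPM of each of the 485 genes in NW (horizontal) and ABX (vertical) neutrophils, both on log axes, with the line of equality and dashed lines at a 2-fold difference. The 12 lowest ratios run from Osm at -3.95 to Fth1 at -1.47 on the log2 scale, and the 12 highest from S100a6 at 1.04 to Fpr1 at 1.57.

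The cytokine and chemokine list had a median ratio below 0 in ABX neutrophils, in part through the cells just inside the limit. Of its 17 genes 8 could be compared, with a median log2 ratio of -1.14. Over all 485 genes 6.6% were at least 2-fold lower and 2.68% higher, and in this list 4 were lower and none higher by that fold. The 4 were Osm, Il1rn, Cxcl2 and Ccl3, and only Osm and Il1rn stayed past 2-fold lower without the cells just inside the limit, at -3.89 and -1.87. Without those cells Il1b was at -0.91, Cxcl2 at -0.85, Ccl3 at 0.41 and Ptgs2 at 1.00. The list median is given with those cells only. Osm, oncostatin M of the interleukin-6 family, had the lowest ratio of all 485 genes: 96 UMIs in NW (1146 CPM) and 4 in ABX (74.4 CPM), a log2 ratio of -3.95 (-5.85 to -2.54). It was seen in 22 of 47 NW and 3 of 35 ABX neutrophils, and the highest cell had 20 UMIs in NW and 2 in ABX. The 5 highest NW cells held 68.75% of the NW Osm UMIs. With each cell thinned to 500 UMIs, 25.7% of NW and 3.16% of ABX neutrophils would keep an Osm UMI, a difference of the same direction at equal depth. In B cells 3.61% and 2.83% held an Osm UMI at full depth, and 0.321% and 0.289% would keep one at 500 UMIs.

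Il1rn, the natural antagonist of the interleukin-1 receptor, was also lower in ABX, at 884 CPM in NW and 205 in ABX, a log2 ratio of -2.11 (-3.17 to -1.19). The 5 highest NW cells held 70.3% of the 74 NW UMIs of Il1rn, and the highest alone held 28. The agonist Il1b stood at 9923 and 5116 CPM, a log2 ratio of -0.96 (-1.16 to -0.76), just short of 2-fold. Il1b was carried by most cells, 44 of 47 and 28 of 35, but the median cell had 13 UMIs in NW and 3 in ABX, while the highest cells reached 92 and 68. The 5 highest cells held 34.7% of the Il1b UMIs in NW and 66.5% in ABX. Among B cells 2.65% and 3.04% had an Il1b UMI.

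The values of Cxcl2, Ccl3 and Ptgs2 changed most with single cells. Cxcl2, which attracts neutrophils through Cxcr2, had 401 UMIs in 30 NW cells and 95 in 9 ABX cells, or 4789 and 1768 CPM, a log2 ratio of -1.44 (-1.78 to -1.11). In ABX 94.7% of these UMIs lay in 5 cells. A Cxcl2 UMI was held by 13.3% of NW and 5.87% of ABX B cells. Without the cells just inside the limit the ratio was -0.85, without the highest cell of each library it was -1.98, and with a gate of at least 10 UMIs of both S100 genes it was -3.17. Ccl3, a chemokine for monocytes and T cells, had 113 UMIs in 13 NW cells and 29 in 3 ABX cells, a log2 ratio of -1.32 (-1.96 to -0.72). That ratio was -2.21 without the highest cells, -0.15 with the gate at 10 UMIs and 0.41, of the opposite sign, without the cells just inside the limit. Of B cells, which were deeper, 13.7% and 12.8% held a Ccl3 UMI at full depth. Thinned to 500 UMIs per cell, 17.6% of NW and 6.30% of ABX neutrophils would keep one, against 1.32% and 1.43% of B cells. Because the Ccl3 ratio changed sign without the cells just inside the limit, no difference in Ccl3 is read from the neutrophils. Ptgs2, the inducible cyclooxygenase, stood at 908 and 688 CPM, with 14 and 4 cells holding it. Its ratio of -0.40 became -2.60 without the highest cell of each library and 1.00 without the cells just inside the limit, so it has no stable direction. Ccl6 was the member of the list above 0, at 3821 and 4763 CPM and 0.32 (0.08 to 0.56), and it was spread over 44 and 33 cells. Nlrp3, the inflammasome sensor, was at 836 and 744 CPM, -0.17 (-0.77 to 0.41). Il1a and Il36g had no UMI.

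The immediate early and stress list was also lower in ABX. Of 18 genes 16 were compared and 14 had a lower level in ABX. The median log2 ratio was -0.67, beside -0.003 over all 485 genes. In this list 4 were at least 2-fold lower and none 2-fold higher, beside 6.6% and 2.68% of the 485. Nfkbia encodes the inhibitor of NF-kB, which NF-kB itself induces, and was at 0 in the median cell of both groups. It had 105 UMIs in 22 NW cells and 15 in 10 ABX cells, a log2 ratio of -2.17 (-3.06 to -1.38). Nfkbia was held by 62.2% of NW and 59.0% of ABX B cells, and Ier3 by 8.67% and 5.35%. Ier3, an early response gene of the same signalling, had 63 UMIs in 16 NW cells and 9 in 3 ABX cells, -2.17 (-3.36 to -1.15). Without the cells just inside the limit Nfkbia was at -1.54, Ier3 at -1.67 and Jun at -0.82. Egr1 was at 1123 and 409 CPM, -1.46 (-2.20 to -0.77), and Jun at 1863 and 763, -1.29 (-1.82 to -0.78). The most abundant members differed less: Fos stood at 9625 and 6958 CPM, -0.47 (-0.65 to -0.29), Zfp36, which encodes an mRNA-destabilizing protein, at 7010 and 3926, -0.84 (-1.07 to -0.61), and Dusp1, a MAP kinase phosphatase, at 6878 and 5768, -0.25 (-0.46 to -0.05). Jund at 3188 and 3182 CPM did not differ by level, and the heat-shock gene Hspa1b was at 346 and 465.

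The list summed to a median of 411.8 UMIs per 10000 in NW neutrophils (quartiles 299 and 552) and 229.9 in ABX (154 and 333). The ranges, 146 to 939 and 65.7 to 920.2, overlap for most of their length. Egr1 was lower in the other cells of the ABX library as well, at -0.61 in C1q-high macrophages, -0.75 in T cells and -1.29 in B cells, whereas Jun was at -0.03, -0.30 and -0.18 in these and Fos at -0.10, -0.32 and -0.66. The part of a library-wide difference in the neutrophil values was not tested.

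**Figure D3:**
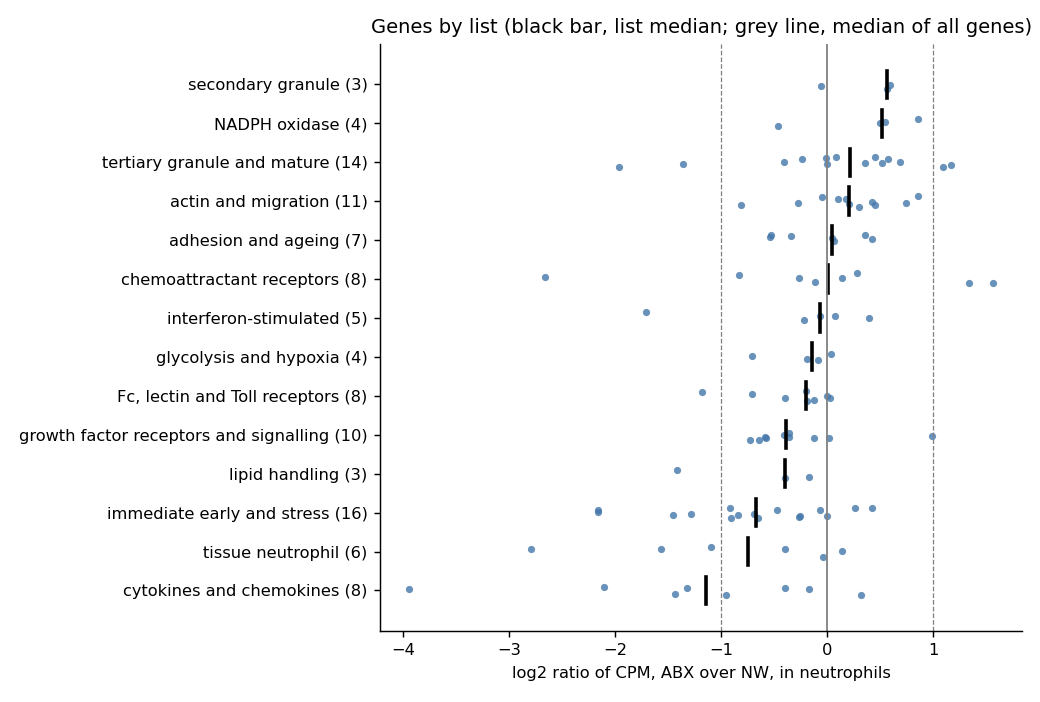
Log2 ratio of CPM, ABX over NW, in neutrophils for each compared gene (points) of each list with at least 3 such genes, with the number in parentheses, the list median as a black bar, the median of all 485 genes as a grey line and dashed lines at 2-fold. Cytokines and chemokines have the lowest median (-1.14), then the tissue neutrophil list (-0.75) and immediate early genes (-0.67). The NADPH oxidase (0.52, 4 genes) and secondary granule (0.57, 3 genes) medians lie above 0, with Cyba (-0.46) and Lcn2 (-0.06) below it. The secondary granule median is the value of Anxa1. All medians include the cells just inside the limit.

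Promoter sequences were read for the genes with the 12 lowest and 12 highest ratios, as the windows from 250 bases before to 50 after each annotated start in RefSeq (GRCm38.p6). Osm, Cstb, Thbs1, Gm5483 and Arrb2 were not matched. The NF-kB letters, GGGA and TTCC with any 2 bases between them, on either strand occur in 1.47% of 32851 promoters of this length. They were in 1 of the 9 matched genes with low ratios, Nfkbia, and in 1 of the 10 with high ratios, Pglyrp1. Cxcl2, which was added after its values were seen, holds a pair of overlapping matches. Windows of S100a8, S100a9, Csf3r, Cxcr2 and Il1b were read as well. Csf3r held 1 match of the NF-kB letters, 129 bases before the start, and the others, with Il1b among them, held none. The AP-1 letters TGANTCA, in 7.81% of all promoters on either strand, were in 1 low gene, Il1rn, and in no high gene. The C/EBP letters TTGCNNAA, in 10.8%, were in Fth1 among the low genes and in Rdh12 and Retnlg among the high genes. A match is a description of letters and not a binding site. The windows of Nfkbia (chr12:55492598-55492897, minus strand) and Cxcl2 (chr5:90903649-90903948, plus strand) are shown because both genes had lower levels in ABX and hold the NF-kB letters, 29 and 97 bases before the start, and that of Retnlg (chr16:48872358-48872657, plus strand) because it was the most abundant gene among the highest ratios. Capitals mark matches of the NF-kB letters (Nfkbia and Cxcl2), of the PU.1 letters GAGGAAG on the opposite strand, in 13.6% of promoters (Cxcl2, after the start), and of the C/EBP letters on the opposite strand (Retnlg).
Nfkbia: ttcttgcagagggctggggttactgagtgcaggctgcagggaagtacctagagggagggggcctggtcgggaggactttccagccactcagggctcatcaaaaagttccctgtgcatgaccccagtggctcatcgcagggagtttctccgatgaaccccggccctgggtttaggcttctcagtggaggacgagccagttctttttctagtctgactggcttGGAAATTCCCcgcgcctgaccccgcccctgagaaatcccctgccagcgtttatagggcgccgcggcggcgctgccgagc
Cxcl2: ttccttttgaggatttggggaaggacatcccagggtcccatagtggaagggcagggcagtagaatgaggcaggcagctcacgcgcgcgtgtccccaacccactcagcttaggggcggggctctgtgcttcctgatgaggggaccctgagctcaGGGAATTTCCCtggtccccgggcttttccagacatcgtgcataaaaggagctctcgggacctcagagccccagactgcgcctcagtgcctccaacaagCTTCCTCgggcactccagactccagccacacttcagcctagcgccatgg
Retnlg: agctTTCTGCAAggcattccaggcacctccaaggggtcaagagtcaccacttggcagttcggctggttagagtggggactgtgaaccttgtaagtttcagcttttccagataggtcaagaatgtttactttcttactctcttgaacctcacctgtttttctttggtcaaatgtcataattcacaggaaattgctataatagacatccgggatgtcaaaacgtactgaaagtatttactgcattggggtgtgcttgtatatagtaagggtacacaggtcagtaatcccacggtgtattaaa

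Fth1, Nfe2l2, Cstb, Ctsb, Plin2 and G0s2 were at least 2-fold lower in ABX neutrophils. Fth1, the ferritin heavy chain, was at 12252 CPM in NW and 4409 in ABX, a log2 ratio of -1.47 (-1.68 to -1.27), and at -1.20 without the cells just inside the limit. Of the cells 46 of 47 and 33 of 35 held it, with medians of 87.7 and 30.1 UMIs per 10000 and quartiles of 48.0 to 133 and 23.6 to 60.7. Nfe2l2, the transcription factor Nrf2 that controls antioxidant genes, was in 28 NW and 7 ABX cells with 57 and 13 UMIs, -1.49 (-2.49 to -0.61). Cstb, cystatin B, had 54 UMIs in 19 cells and 5 in 4 cells, -2.79 (-4.47 to -1.48), and -1.77 without the cells just inside the limit, while 31.6% and 25.2% of B cells held it. Its target Ctsb, cathepsin B, was at 716.5 and 335 CPM, -1.10 (-1.95 to -0.32). Plin2, which coats lipid droplets, had 50 and 12 UMIs, -1.42 (-2.46 to -0.49), and G0s2, an inhibitor of adipose triglyceride lipase, 72 and 18, -1.36 (-2.19 to -0.60).

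Fth1, Cstb, Ctsb and Plin2 are abundant in adipose macrophages. The 11 macrophage genes summed to 2317 CPM in NW neutrophils and 1991 in ABX, with a median of 3 and 2 UMIs per cell, but the gate itself limits C1qa, C1qb and C1qc. Apoe, the most abundant of the list and not used by the gate, stood at 836 and 688 CPM, -0.28 (-0.90 to 0.31), against 11086 CPM in NW C1q-high macrophages. The part of macrophage RNA in these genes was not tested. Wfdc17, a whey acidic protein family member expressed in both cell types, was at 1958 and 502 CPM in neutrophils, -1.96 (-2.61 to -1.37), and at 1022 and 661 CPM in C1q-high macrophages, -0.63.

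Other genes with low ratios encode secreted and membrane proteins. Ccrl2, a non-signalling receptor that binds the adipokine chemerin, had 69 UMIs in 16 NW cells and 7 in 5 ABX cells, a log2 ratio of -2.66 (-4.03 to -1.54), which was -1.13 with the gate at 10 UMIs and -1.85 without the cells just inside the limit. Ifitm1, of the interferon-induced transmembrane family whose members are similar in sequence, was at 2926 and 893 CPM, -1.71 (-2.19 to -1.26), in 38 and 19 cells. Lrg1, a secreted glycoprotein stored in neutrophil granules, was at 1552 and 521 CPM, -1.58 (-2.22 to -0.98), in 32 and 13 cells. Thbs1, thrombospondin-1, was at 1433 and 484 CPM, -1.57 (-2.24 to -0.95), but in only 14 and 7 cells, with 79.2% and 92.3% of its UMIs in the 5 highest. Without the cells just inside the limit Thbs1 was at -1.05. Cd14, the co-receptor for bacterial lipopolysaccharide, was at 884 and 391 CPM, -1.18 (-1.95 to -0.46). The other interferon-stimulated genes compared lay between -0.21 (Ifitm2) and 0.40 (Ifitm3), and Ifit1, Ifit2, Ifit3b and Usp18 had no UMI.

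Retnlg had the most UMIs of the 13 genes at least 2-fold higher in ABX. It stood at 8753 CPM in NW and 19759 in ABX, a log2 ratio of 1.17 (1.04 to 1.31). The median neutrophil held 52.5 Retnlg UMIs per 10000 in NW (quartiles 21.6 and 131) and 169.1 in ABX (74.2 and 261), and 40 of 47 against 35 of 35 cells held any. With each cell thinned to 500 UMIs, 76.3% and 97.7% would keep one. The 2 distributions overlap, since the highest NW cell reached 486.9 and every quartile of the ABX cells lay under it. In B cells 0.964% and 0.943% held a Retnlg UMI at full depth, and 0.274% and 0.174% would keep one at 500 UMIs.

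The formyl peptide receptors, which detect peptides of bacteria and mitochondria, had high ratios as well. Fpr1 had 21 UMIs in 13 NW cells and 40 in 18 ABX cells, a log2 ratio of 1.57 (0.77 to 2.41), and 1 ABX cell held 16 of the 40. Fpr2 had 43 UMIs in 20 cells and 70 in 20 cells, 1.34 (0.77 to 1.93). They are neighbouring paralogs on chromosome 17, and reads of a shared stretch could be split between them. Of the other chemoattractant receptors, Ptafr, for platelet-activating factor, had 47 and 17 UMIs and a ratio of -0.83, Cxcr2 was at 5398 and 4986 CPM, -0.11 (-0.34 to 0.11), C5ar1, for complement C5a, at 1576 and 1916, 0.28 (-0.10 to 0.66), and Ccr1 at 1540 and 1284, -0.26 (-0.71 to 0.17). Of the 8 compared, 2 were at least 2-fold higher and 1, Ccrl2, at least 2-fold lower, beside 2.68% and 6.6% of all 485 genes.

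Granule and effector genes differed in both directions. Pglyrp1, a granule protein that binds bacterial peptidoglycan, was at 955 and 2047 CPM, 1.10 (0.67 to 1.53), in 57.4% of NW and 77.1% of ABX neutrophils. Mmp8 was at 1075 and 1730 CPM, 0.69 (0.25 to 1.12), Lyz2, lysozyme, at 1564 and 2363, 0.59 (0.23 to 0.96), Mmp9 at 0.45 (0.13 to 0.78) and Hdc at 0.52 (0.14 to 0.90). Lcn2 at 3105 and 2977 CPM, -0.06 (-0.35 to 0.23), and Slpi, an elastase inhibitor, at 1755 and 1861 CPM, 0.08 (-0.30 to 0.46), gave values near 0. Of 14 tertiary granule and mature genes compared, 2 were at least 2-fold higher (Retnlg, Pglyrp1) and 2 at least 2-fold lower (Wfdc17, G0s2), with a median of 0.22. Over all 485 genes the shares were 2.68% higher and 6.6% lower. Among the 4 compared subunits of the superoxide-producing NADPH oxidase, Ncf1 was at 513 and 930 CPM, 0.86 (0.24 to 1.48), Rac2 at 0.50 (0.12 to 0.87) and Cyba at -0.46 (-1.31 to 0.33).

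The remaining high ratios were S100a6, a calcium-binding protein, at 1588 and 3256 CPM and 1.04 (0.70 to 1.37), Vim, vimentin, and H2-K1, a classical MHC class I gene with related copies, each at 54 and 76 UMIs and 1.13 (0.61 to 1.66), Rdh12, a retinal reductase, at 1.06 (0.51 to 1.62), Arrb2, beta-arrestin 2, at 28 and 37 UMIs and 1.04, Eif4ebp2, a repressor of translation initiation, at 1.43 (0.70 to 2.19), the ribosomal gene Rpl27a at 1.09 (0.38 to 1.82) and Gm5483, a stefin A family gene, at 1.35 (0.48 to 2.25). S100a6, Vim, H2-K1, Rdh12, Arrb2, Rpl27a, Gm5483 and Pglyrp1 each came below 2-fold under at least 1 other setting, with lowest values from 0.80 to 0.99. Vim had a lower level in ABX in the other cells, -1.01 in C1q-high macrophages and -0.84 in T cells.

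Of 10 growth factor receptor and signalling genes compared, 8 had a lower level in ABX and none passed 2-fold. Their median log2 ratio was -0.39, beside -0.003 over all 485 genes. Csf3r was at 4084 and 3182 CPM, -0.36 (-0.63 to -0.09), Cebpb, a factor of emergency granulopoiesis, at 3666 and 2456, -0.58 (-0.88 to -0.28), Pim1, a kinase induced by cytokine receptors, at 2436 and 1470, -0.73 (-1.12 to -0.35), and Il6ra at 429.9 and 856, 0.99 (0.33 to 1.66). Cxcr4, the receptor that marks aged neutrophils, was at 1755 and 1935, 0.14 (-0.24 to 0.51). None of the 7 adhesion and ageing genes passed 2-fold. The survival gene Mcl1 was at 3165 and 2772 CPM, -0.19 (-0.49 to 0.10). Among 11 actin and migration genes the median was 0.21 and none passed 2-fold.

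Of 8 receptors for microbial metabolites, Ffar2 and Ffar3, for short-chain fatty acids, and Gpbar1, for bile acids, had no UMI in the 82 neutrophils. Hcar2, a receptor for butyrate and beta-hydroxybutyrate, was the gene of this list that could be compared, with 56 UMIs in 23 NW cells and 32 in 11 ABX cells, a log2 ratio of -0.17 (-0.84 to 0.48). No B cell in either library held an Hcar2 UMI.

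The same genes were then read in the other cells of each library, with C1q-high macrophages (5614 in NW, 4502 in ABX), T cells (1449 and 1496) and B cells (415 and 954) defined by their own marker counts. Fth1 was at -0.03 on the log2 scale in the macrophages, -0.05 in T cells and 0.08 in B cells, against -1.47 in neutrophils. Nfkbia was at -0.07, -0.65 and -0.27 against -2.17. Osm was at -0.05 in macrophages and -0.65 in T cells, and Ier3 at 0.02 and -0.44. Cxcl2 was at -0.05 in macrophages and -3.00 in T cells, where its level was 116 CPM in NW and 14.5 in ABX. Il1b was at 0.53 in macrophages and 0.74 in T cells. Retnlg was at 0.51 in macrophages, 2.52 in T cells and -3.94 in B cells, from 16 and 86 UMIs in T cells and 181 and 24 UMIs in B cells. Only 0.414% and 0.936% of T cells and 0.964% and 0.943% of B cells held a Retnlg UMI. The T and B cell ratios of Retnlg thus rest on few cells and are not read as levels of these cell types. Il1rn was lower in macrophages too, at -1.19 (-1.57 to -0.83), at levels of 8.05 and 3.53 CPM. These values stand side by side, and whether the ratios differ between cell types was not tested, since each rests on the same 2 libraries.

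**Figure D4:**
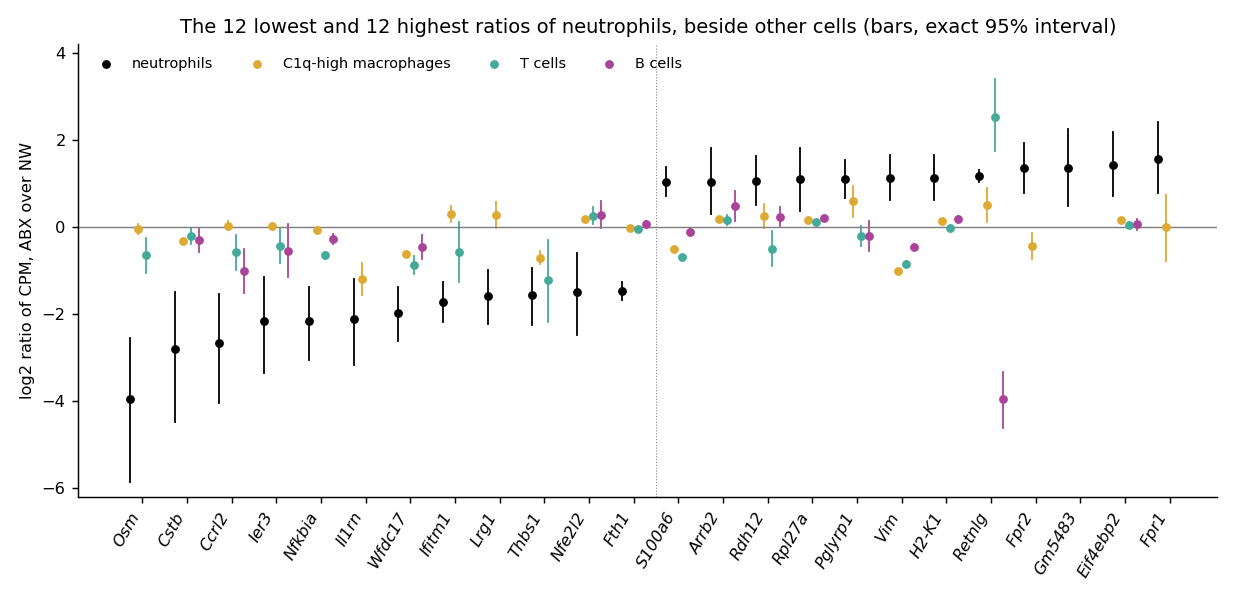
Log2 ratio of CPM, ABX over NW, with exact 95% counting intervals as bars, for the genes with the 12 lowest (left of the dotted line) and 12 highest ratios of neutrophils, in neutrophils, C1q-high macrophages, T cells and B cells. A point is shown where a gene had at least 50 UMIs over both libraries. For Fth1 the macrophages, T cells and B cells lie between -0.05 and 0.08 and neutrophils at -1.47, while Wfdc17 and Thbs1 have values below 0 in macrophages also.

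On the cell surface, CD44, the hyaluronan receptor, was the most abundant of the 10 antibodies on neutrophils and was not used to choose them. Neutrophils carried a median of 303 CD44 antibody UMIs in NW (range 100 to 930) and 346 in ABX (range 94 to 769), against 101 and 85 on all other cells. In NW 46 of 47 neutrophils and in ABX 35 of 35 lay above the median of the other cells, and the neutrophil median stood at the 86.1 and 93.2 percentile of those cells. Cd44 RNA was at 2161 and 2233 CPM in neutrophils, 0.05 (-0.30 to 0.39). The other antibodies had medians from 1 (CD4 in both groups) to 20 (NK-1.1 in NW). No isotype control is listed, so the background of each antibody is unknown.

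**Figure D5:**
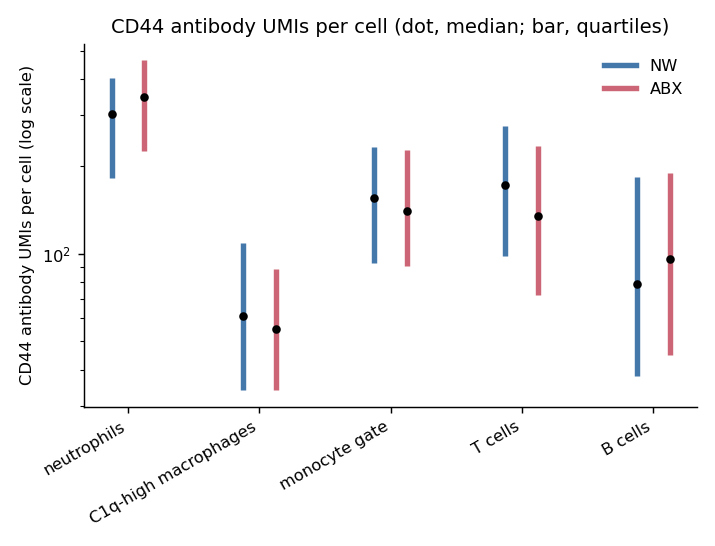
CD44 antibody UMIs per cell on a log axis, with the median as a dot and the quartiles as a bar, in NW and ABX. Neutrophils have the highest CD44 medians of the 5 cell classes (303 and 346).

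Markers of other cell types were at low levels in most neutrophils. Summed over 11 lists of other cell types and cell division, a neutrophil held a median of 11 such UMIs in NW and 8 in ABX. Exactly 3 cells stood apart, with over 30. In NW, 1 cell had 74, of which 55 were Igkc, together with 17.0% mitochondrial UMIs and 5437 antibody UMIs, where the median was 428. In ABX, 1 cell had 57, with 14 each of Il7r and Il1rl1, which mark type 2 innate lymphoid cells and some T cells, and was also the deepest member, at 4056 gene UMIs with no Csf3r. The other ABX cell had 118, with 15 of Cd163 and 22 of H2-Aa, genes of macrophages and antigen-presenting cells. The remaining cells reached at most 19 in NW and 25 in ABX. Trbc1, Cd79b, Ms4a1, Ncr1, Nkg7, Epx, Prg2, Cpa3 and the hemoglobin genes were at 0 in all 82, and Cd3e and Cd3d were at 0 by the gate. The monocyte list summed to 23 UMIs in each library.

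The MHC class II genes, which present peptides to CD4 T cells, differed with and without these cells. H2-Ab1 was at 478 and 856 CPM, a log2 ratio of 0.84 (0.20 to 1.49), and H2-Eb1 at 382 and 669.8, 0.81 (0.08 to 1.54), and without the 3 cells these became 0.08 and -0.01. Without them 18 of 454 genes were at least 2-fold higher in ABX and 29 at least 2-fold lower, and the share of neutrophils gave a log10 ratio of -0.153 (-0.347 to 0.041).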

How the data were processed

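Single-cell RNA-seq and antibody counts of VAT CD45+ cells from NW and ABX mice were analysed, 1 library per condition. The deposited tables hold, per the file headers, UMI counts per cell barcode for each gene and antibody, which the authors made with the BD WTA Rhapsody Analysis Pipeline 1.8 on mm10 (GRCm38) without normalization. The submitters' processing notes also name R 3.6.0 and Seurat 3.0.1. The libraries held 79855126 (NW) and 64801767 (ABX) gene UMIs.

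Cells were filtered as in the study's methods, and no doublet caller was run. Neutrophils were gated on raw UMIs. UMIs of a gene were summed over the neutrophils of a library and given as CPM, and a gene was compared where the NW and ABX neutrophils together gave 50 UMIs or more, with a ratio of at least 2 or at most 0.5 taken as past the fold. Levels carry exact Poisson intervals, ratios the exact interval of 2 Poisson rates and shares Clopper-Pearson intervals. In place of random draws, thinning used the expected share of cells keeping a UMI. With 1 library per condition no test was run. Named were genes of the lists with at least 20 UMIs, the 12 highest and 12 lowest ratios past the fold, and the 25 genes most enriched over other cells. The members and lists were chosen with earlier results of these data known. Code ran in Python 3.11.15 with numpy 2.4.6, scipy 1.17.1 and pandas 2.3.3. The ratio interval was checked only on simulated independent Poisson counts, which leave out the clustering of UMIs in single cells. Coordinates are from RefSeq (GRCm38.p6). Alternatives changed the gate, the cell filters, the minimum of UMIs per gene and the scaling, or left out single cells. Results on some genes are not reported here.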

Additional observations from a re-analysis of the deposited data

How the results depend on the processing

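No paired analysis was possible because each condition has 1 library. The minimum of UMIs per gene set the counts of genes past 2-fold: with at least 20 UMIs, 69 genes were higher and 106 lower in ABX of 1271 compared, and with at least 100 UMIs, 7 and 12 of 224. Under the other gates, filters and scalings the counts stayed between 10 and 18 higher and between 22 and 37 lower. The share of neutrophils had log10 ratios from -0.205 to -0.0741, and the interval excluded 0 only with at least 1000 UMIs per cell. Of 32 named genes past 2-fold, 18 stayed past it in all of 16 settings and 14 did not, namely Ccl3, which changed sign at 0.41, and Jun (-0.73), Ctsb (-0.78), Cxcl2 (-0.85), Plin2 (-0.91), Nfe2l2 (-0.97), H2-K1 (0.80), S100a6 (0.82), Rdh12 (0.85), Pglyrp1 (0.90), Arrb2 (0.94), Rpl27a (0.96), Vim (0.97) and Gm5483 (0.99), each at its value nearest 0. Across these settings the log2 ratios spanned a wide range for Ccl3 (-2.21 to 0.41), Cxcl2 (-3.17 to -0.85), Ier3 (-3.80 to -1.67), Ccrl2 (-3.13 to -1.13), Cstb (-3.06 to -1.59), Thbs1 (-2.39 to -1.05), Osm (-4.61 to -2.99) and Nfe2l2 (-2.40 to -0.97), whereas Fth1 (-1.54 to -1.20) and Retnlg (1.04 to 1.31) spanned a narrow one, and the cause was not tested. Leaving out the deepest ABX neutrophil, cells over 5% mitochondrial UMIs, cells with over 30 UMIs of other cell types, or cells just inside the S100 limit was chosen after seeing the data. Depth limits the lowest genes: Osm in ABX rests on 4 UMIs.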
